A study of Homo sapiens with 6 samples.

Results

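The lysosome genes described here are 49 named genes for the enzymes, membrane proteins and proton pump of the lysosome and for their main transcription factors. Their rows were taken by symbol from a deposited expression table of 25268 gene symbols in A673 cells, and all 49 were found. They fall into 6 classes. The 11 cathepsins are CTSA, CTSB, CTSC, CTSD, CTSF, CTSH, CTSK, CTSL, CTSO, CTSS and CTSZ. The 15 other hydrolases and cofactors are GLA, GLB1, GAA, GUSB, HEXA, IDS, IDUA, MAN2B1, NEU1, PSAP, ASAH1, SMPD1, LIPA, TPP1 and PPT1. The 7 membrane and lipid-transfer proteins are LAMP1, LAMP2, SCARB2, CD63, NPC1, NPC2 and MCOLN1. This class is called membrane proteins below for short, although NPC2 belongs to it as a lipid-transfer protein. The proton pump (V-ATPase) is represented by 5 subunits of its membrane sector V0 and 8 of its cytosolic sector V1. The MiT/TFE transcription factors TFEB, TFE3 and MITF make up the remaining 3.

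A673 is a human Ewing sarcoma line, a tumour line driven by the EWS-FLI1 fusion protein. The cells were transfected with esiRNA, a pool of short interfering RNAs against a given transcript, and RNA was sequenced 72 h later. The groups were esiFLI1, which targets FLI1 sequence, esiUSP9X, which targets the deubiquitinase USP9X, and esiGFP, the non-targeting control, with 2 libraries each (replicates 1 and 2). All 3 groups are the same line, and each was transfected with an esiRNA. The study asked how loss of USP9X compares with loss of FLI1 in these cells.

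Lysosomal hydrolases work in an acid lumen, where they take apart proteins, glycans, glycogen and lipids delivered by endocytosis and autophagy. The V-ATPase supplies the acid by pumping protons across the membrane, its V1 sector splitting ATP outside and its V0 sector forming the proton path. TFEB, TFE3 and MITF bind E-box sequences of the CACGTG type in the promoters of many of these genes, the so-called CLEAR network, and mTORC1 at the lysosomal surface restrains them by keeping them in the cytosol.

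The promoters were searched for the E-box core, because it is the element the family is known to share. RefSeq windows on GRCh38.p14, from 250 bases before to 50 bases after an annotated start, were found for 36 of the 49 genes, with 53 windows among them. Windows for ATP6V0E1, ATP6V1C1, ATP6V1A, ATP6V1B2, HEXA, LAMP2, ATP6V1H, CTSK, CTSS, CTSB, ASAH1, CTSO and PSAP were not used here. The letters CACGTG, which read the same on both strands, were present for 11 of the 36 genes (30.6%), against 8.77% of the 27305 genes with a window. Per window the shares were 20.8% of the members' windows and 7.26% of all 35116 windows. The 11 genes were ATP6V0B, ATP6V0D1, ATP6V1G1, CD63, CTSA, CTSD, CTSF, GAA, LAMP1, MCOLN1 and NEU1. The longer form TCACGTGA contains the core, so the counts overlap. TCACGTGA was found for 6 of the 36 genes (16.7%, against 1.18% of all genes), namely ATP6V0D1, ATP6V1G1, CTSA, GAA, LAMP1 and MCOLN1. A repeat of the GGAA core of ETS factors, the family of FLI1, was searched on both strands as GGAAGGAA and found for NPC1 and NPC2 only (5.56% of the 36 genes, against 4.50% of all genes). A match is a run of letters and says nothing of binding in these cells.

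Windows with the core at 2 places are shown for genes from different classes, with CACGTG in capitals, 5′ to 3′ on the gene's own strand. CTSF, GAA and CTSA are enzymes, ATP6V0B is a pump subunit and MCOLN1 is a calcium channel; their RNA levels are compared below.
CTSF, chr11:66568557-66568856, minus strand: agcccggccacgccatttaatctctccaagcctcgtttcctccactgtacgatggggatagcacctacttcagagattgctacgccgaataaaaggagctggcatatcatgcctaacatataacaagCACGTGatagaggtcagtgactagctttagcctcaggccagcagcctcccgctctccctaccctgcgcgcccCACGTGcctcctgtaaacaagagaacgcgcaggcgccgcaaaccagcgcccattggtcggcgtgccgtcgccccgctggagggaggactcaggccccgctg
GAA, chr17:80101331-80101630, plus strand: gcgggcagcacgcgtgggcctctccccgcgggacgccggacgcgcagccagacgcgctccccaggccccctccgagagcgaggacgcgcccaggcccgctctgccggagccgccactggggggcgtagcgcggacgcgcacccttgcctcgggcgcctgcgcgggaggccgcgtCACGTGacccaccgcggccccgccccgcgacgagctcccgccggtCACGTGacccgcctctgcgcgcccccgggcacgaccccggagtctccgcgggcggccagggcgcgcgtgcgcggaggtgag
CTSA, chr20:45891085-45891384, plus strand: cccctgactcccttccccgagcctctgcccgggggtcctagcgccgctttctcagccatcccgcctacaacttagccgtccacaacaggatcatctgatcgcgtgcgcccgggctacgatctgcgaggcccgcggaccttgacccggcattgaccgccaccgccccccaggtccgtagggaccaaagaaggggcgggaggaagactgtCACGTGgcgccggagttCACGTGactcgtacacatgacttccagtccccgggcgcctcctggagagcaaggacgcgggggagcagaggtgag
ATP6V0B, chr1:43974710-43975009, plus strand: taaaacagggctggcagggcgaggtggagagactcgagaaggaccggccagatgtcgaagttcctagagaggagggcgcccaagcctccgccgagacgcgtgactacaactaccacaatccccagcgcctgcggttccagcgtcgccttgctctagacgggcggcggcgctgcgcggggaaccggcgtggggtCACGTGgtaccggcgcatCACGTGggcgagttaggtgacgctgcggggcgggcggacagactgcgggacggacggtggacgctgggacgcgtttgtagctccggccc
MCOLN1, chr19:7522374-7522673, plus strand: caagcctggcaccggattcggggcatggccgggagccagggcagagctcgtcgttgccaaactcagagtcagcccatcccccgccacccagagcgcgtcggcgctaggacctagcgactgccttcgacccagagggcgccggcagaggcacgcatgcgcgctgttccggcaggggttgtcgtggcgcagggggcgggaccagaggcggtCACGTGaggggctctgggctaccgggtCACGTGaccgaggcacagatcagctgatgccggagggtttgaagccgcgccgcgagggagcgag
The first base of the core lay 123 and 51 bases before the start in CTSF, 76 and 31 in GAA, 42 and 25 in CTSA, 57 and 39 in ATP6V0B, and 41 and 14 in MCOLN1.

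The values are those the authors deposited, FPKM, a read density corrected for transcript length and for the size of the library. Paired values below are those of replicate 1 and replicate 2, in that order. The libraries summed to between 781732 and 907926 FPKM, and between 11310 and 12071 genes reached 1 FPKM. FLI1 was at 12.7 and 14.1 FPKM in esiFLI1, 24.98 and 31.9 FPKM in esiUSP9X and 24.1 and 36.4 FPKM in esiGFP. USP9X was at 26.2 and 37.7 FPKM in esiFLI1, 5.31 and 7.10 FPKM in esiUSP9X and 20.6 and 26.5 FPKM in esiGFP. Each targeted transcript was thus lowest in the libraries labelled for it. EWSR1, the fusion's other partner gene, was at 94.1 and 84.9 FPKM in esiFLI1, 108 and 113 FPKM in esiUSP9X and 105 and 117 FPKM in esiGFP. Of 6 Ewing sarcoma markers 5 passed the filter (NKX2-2, NR0B1, STEAP1, CCND1 and PRKCB) and CD99 was listed at 0 in all 6 libraries. All 5 fell in esiFLI1 against esiGFP in the fit with the replicate block described next, where 21.6% of all tested genes were called lower. Without the block 3 of the 5 were called lower, against 0.23% of all tested genes.

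Tests used limma on log2(FPKM + 1) for the 12169 genes that reached 1 FPKM in 2 or more libraries, with adjusted p under 0.05 as the call. A log2 change is a difference on this scale, which understates the change of genes with low FPKM. Libraries with the same replicate number deviated together from their group means across genes, so each comparison was fitted without and with the replicate number as a block. Of the 49 lysosome genes 46 passed the filter. CTSZ, IDUA and MITF did not. CTSZ was at 1.404 and 0.708 FPKM in esiFLI1, 0.427 and 0.521 FPKM in esiUSP9X and 0.430 and 0.479 FPKM in esiGFP. IDUA, an enzyme of glycosaminoglycan breakdown, was at 2.58 and 0.804 FPKM in esiFLI1, 0.271 and 0.518 FPKM in esiUSP9X and 0.984 and 0.354 FPKM in esiGFP. Both were highest in the first esiFLI1 library. CTSO and CTSS passed only through their esiFLI1 libraries, since fewer than 2 of the other 4 libraries reached 1 FPKM, so both had to be high in esiFLI1 to be tested.

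By mean FPKM over the 6 libraries, a scale that accounts for transcript length, the lysosome genes were well expressed. The 46 that passed had a median of 34.7 FPKM, against 12.02 FPKM for all 12169 genes. CD63, a tetraspanin of lysosomes and exosomes, averaged 327 FPKM, and PSAP, the precursor of the saposins that help hydrolases reach lipids, averaged 317 FPKM. ATP6V1F (100.2 FPKM), NPC2 (90.5 FPKM) and CTSD (85.6 FPKM) came next. At the low end of the tested genes were GAA (2.796 FPKM), CTSH (1.90 FPKM), TFEB (1.16 FPKM) and CTSS (0.809 FPKM).

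In esiFLI1 against esiGFP, 19 of the 31 tested cathepsins, other hydrolases and membrane proteins rose in the fit with the replicate block, and none of the 13 pump subunits among the members did. That fit called 19 of the 46 genes higher and 4 lower, where 20.6% of all tested genes were called higher and 21.6% lower. The 19 that rose were 7 of 10 cathepsins, 7 of 14 other hydrolases and 5 of 7 membrane proteins. CTSO and CTSS, which were tested only because they are high in esiFLI1, are among these cathepsins. Leaving out all genes of that kind, the fit called 17 of 44 lysosome genes higher, among them 5 of 8 cathepsins, against 18.2% of the remaining 11679 genes. The 4 that fell were SMPD1, ATP6V0B, ATP6V0C and ATP6V1F. Without the block CTSO was the only lysosome gene called (1 higher and 0 lower, against 2.58% of all genes higher and 0.23% lower). On the FPKM as deposited, all other calls thus rest on pairing the replicates by number. At an unadjusted p under 0.05 that fit held 11 of the 46 genes and 1923 of all genes. After GC correction, chosen after seeing the data, the fit without the block called 10 lysosome genes higher and 0 lower. Of all genes it called 1473 higher and 717 lower.

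The median log2 change was 0.65 over the cathepsins, 0.34 over the other hydrolases and 0.42 over the membrane proteins. It was −0.27 over the V0 subunits and −0.21 over the V1 subunits, against −0.03 over all tested genes. Leaving out genes tested only through esiFLI1, here CTSO and CTSS, the cathepsin median was 0.57, against −0.05 over the remaining tested genes. The class medians moved with the library left out. Without the first esiFLI1 library, in the fit with no block, they were 0.10 for cathepsins, −0.03 for the other hydrolases and −0.15 for the membrane proteins; without the second they were 0.9985, 0.54 and 0.86. Both esiFLI1 libraries lay above both esiGFP libraries for 14 of the 46 genes and below for 5, where 19.8% of all tested genes lay above and 17.3% below. CTSO and CTSS are among the 14, though both had to be high in esiFLI1 to be tested. The share of all tested genes also holds genes of that kind. In these bulk samples, fewer cells that express a gene and less RNA per cell cannot be told apart. The labels do not say that replicates came from separate cultures, so the p-values measure the spread between these libraries only.

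**Figure D1:**
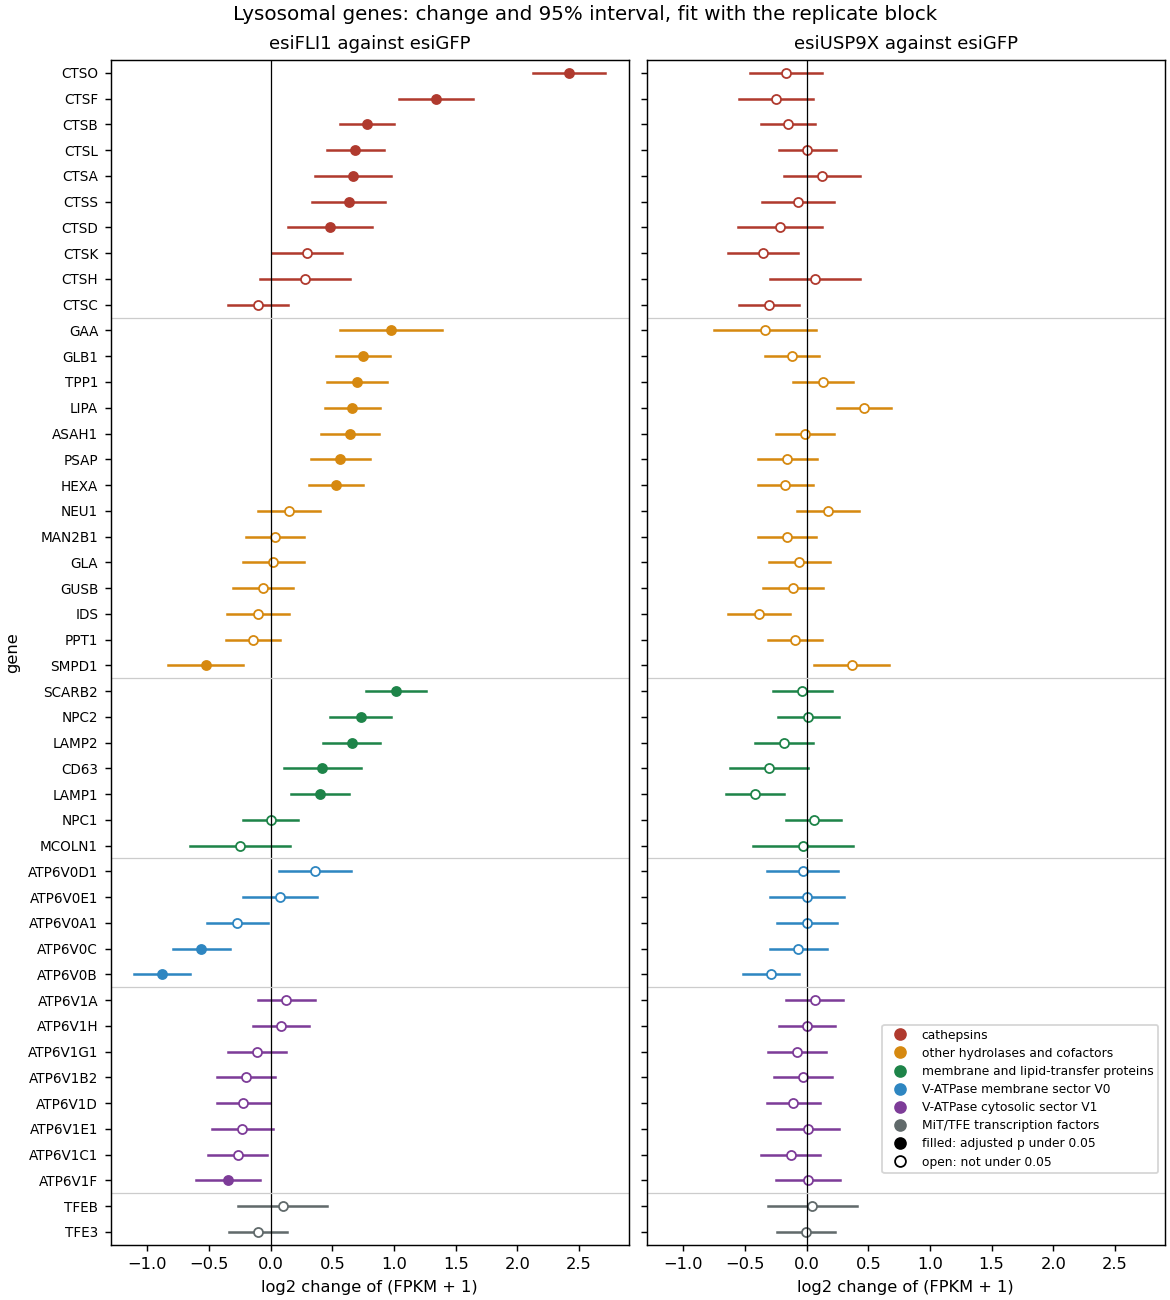
Log2 change (x axis, log2 of FPKM + 1) of the 46 tested lysosome genes (y axis, by class) in esiFLI1 against esiGFP (left) and esiUSP9X against esiGFP (right), with 95% intervals from the fit with the replicate block. In the left panel 19 filled points lie right of 0 and 4 left of it; in the right panel no point is filled.

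Among the cathepsins, CTSO changed most. CTSO, a cysteine protease of the papain family, was at 9.10 and 10.6 FPKM in esiFLI1, 0.784 and 0.825 FPKM in esiUSP9X and 1.11 and 0.939 FPKM in esiGFP. Both esiFLI1 libraries stood far above the other 4, and CTSO passed the filter only through them. Its log2 change against esiGFP was 2.42, with SE 0.17 and limma adjusted p = 0.0077 without the block, and SE 0.13 and adjusted p = 1.6e-05 with it. Without the block the call was lost when any library of esiFLI1 or esiGFP was left out (limma adjusted p up to 0.10); with it the call held in all 9 alternatives, with adjusted p up to 0.0029. CTSF, another papain-like protease, was at 9.52 and 5.24 FPKM in esiFLI1, 2.05 and 1.38 FPKM in esiUSP9X and 2.99 and 1.57 FPKM in esiGFP. The groups did not overlap, and the change was 1.34 (SE 0.13, limma adjusted p = 0.00025 with the block and 0.15 without).

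CTSB and CTSL, abundant cysteine proteases of most cells, shifted by similar amounts. CTSB was at 102 and 70.6 FPKM in esiFLI1, 50.1 and 38.3 FPKM in esiUSP9X and 57.6 and 41.5 FPKM in esiGFP, a change of 0.78 (SE 0.09, limma adjusted p = 0.00065 with the block and 0.29 without). CTSL was at 44.8 and 40.4 FPKM in esiFLI1, 26.02 and 26.3 FPKM in esiUSP9X and 27.9 and 24.3 FPKM in esiGFP, a change of 0.69 (limma adjusted p = 0.0015 with the block and 0.14 without). In both genes the esiFLI1 libraries were the highest of all 6. CTSL has 5 pseudogenes named after it, so its reads may be shared. CTSS, a protease best known from antigen-presenting cells, was low throughout, at 1.26 and 1.54 FPKM in esiFLI1, 0.420 and 0.534 FPKM in esiUSP9X and 0.547 and 0.548 FPKM in esiGFP (change 0.63, limma adjusted p = 0.0061 with the block and 0.10 without). It too was tested only through esiFLI1.

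CTSA and CTSD moved with the replicate number as much as with the treatment. CTSA, a carboxypeptidase that also shields NEU1 and GLB1 from breakdown, was at 82.2 and 34.6 FPKM in esiFLI1, 48.7 and 27.1 FPKM in esiUSP9X and 43.1 and 25.8 FPKM in esiGFP. The groups overlapped, since the second esiFLI1 library lay under the first esiGFP library. The change was 0.67 (SE 0.13, limma adjusted p = 0.0059 with the block and 0.67 without). CTSD, the main aspartic protease of lysosomes and the most abundant cathepsin here, was at 150 and 72.5 FPKM in esiFLI1, 77.3 and 52.9 FPKM in esiUSP9X and 111 and 49.6 FPKM in esiGFP. It also overlapped, with a change of 0.48 (limma adjusted p = 0.033 with the block and 0.78 without); the blocked call was lost without either esiFLI1 library or without the second esiGFP library, with adjusted p up to 0.21. CTSA exons overlap those of PLTP and NEURL2 on the opposite strand, and use of strand in the authors' counting is not given.

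CTSK, CTSH and CTSC passed the filter but were not called in esiFLI1 against esiGFP. CTSK, the collagen-degrading protease of osteoclasts, was at 9.46 and 7.002 FPKM in esiFLI1, 5.21 and 4.46 FPKM in esiUSP9X and 6.44 and 6.45 FPKM in esiGFP, with a change of 0.30 (limma adjusted p = 0.087 with the block). CTSH averaged 2.26 FPKM in esiFLI1 and 1.70 FPKM in esiGFP. CTSC, which activates serine proteases of immune cells, averaged 46.3 FPKM in esiFLI1 and 49.3 FPKM in esiGFP.

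Of the other hydrolases, GAA had the highest change. GAA, which digests glycogen, was at 6.63 and 3.30 FPKM in esiFLI1, 1.54 and 1.10 FPKM in esiUSP9X and 3.17 and 1.04 FPKM in esiGFP. The change was 0.97 (SE 0.18, limma adjusted p = 0.0042 with the block and 0.39 without). Its esiFLI1 and esiGFP values did not overlap but nearly touched, and the blocked adjusted p was 0.061 without the first esiFLI1 library. GLB1, a beta-galactosidase widely used as a senescence stain, was at 45.0 and 33.1 FPKM in esiFLI1, 23.1 and 18.5 FPKM in esiUSP9X and 25.8 and 19.7 FPKM in esiGFP. Its libraries did not overlap between esiFLI1 and either other group, and the change was 0.75 (SE 0.10, limma adjusted p = 0.00081 with the block and 0.25 without).

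LIPA, ASAH1 and PSAP were called higher as well. LIPA, the acid lipase for cholesteryl esters, was at 50.6 and 56.5 FPKM in esiFLI1, 43.0 and 50.5 FPKM in esiUSP9X and 32.6 and 34.3 FPKM in esiGFP, a change of 0.66 (limma adjusted p = 0.0014 with the block and 0.16 without). ASAH1, acid ceramidase, was at 35.3 and 47.5 FPKM in esiFLI1, 23.3 and 28.0 FPKM in esiUSP9X and 24.1 and 27.7 FPKM in esiGFP, a change of 0.65 (limma adjusted p = 0.0021 with the block and 0.26 without). For both, the esiFLI1 libraries lay above those of esiGFP. PSAP was at 566 and 279 FPKM in esiFLI1, 314 and 184 FPKM in esiUSP9X and 361 and 199.9 FPKM in esiGFP. Here the groups overlapped and replicate 2 was low in every group; the change was 0.56 (limma adjusted p = 0.0042 with the block and 0.71 without). LIPA exons overlap those of IFIT2 on the opposite strand.

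For HEXA and TPP1 the esiFLI1 libraries also lay above those of esiGFP. HEXA, a subunit of the hexosaminidase that degrades gangliosides, was at 41.4 and 30.0 FPKM in esiFLI1, 24.9 and 18.3 FPKM in esiUSP9X and 29.3 and 19.9 FPKM in esiGFP, a change of 0.53 (limma adjusted p = 0.0038 with the block and 0.51 without). TPP1, a tripeptidase, was at 43.5 and 30.6 FPKM in esiFLI1, 26.5 and 22.4 FPKM in esiUSP9X and 25.9 and 18.8 FPKM in esiGFP, a change of 0.70 (limma adjusted p = 0.0017 with the block and 0.31 without). SMPD1, acid sphingomyelinase, went the other way, at 38.3 and 16.7 FPKM in esiFLI1, 64.2 and 35.8 FPKM in esiUSP9X and 59.4 and 23.0 FPKM in esiGFP. The groups overlapped, and the change was −0.53 (SE 0.13, limma adjusted p = 0.014 with the block and 0.80 without). That blocked call was lost without either esiFLI1 library or without the first esiGFP library, with adjusted p up to 0.11. GLA, GUSB, IDS, MAN2B1, NEU1 and PPT1 were not called and changed by between −0.14 (PPT1) and 0.15 (NEU1).

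SCARB2 led the membrane proteins. SCARB2, which carries glucocerebrosidase to the lysosome, was at 46.5 and 58.0 FPKM in esiFLI1, 24.1 and 25.03 FPKM in esiUSP9X and 24.0 and 26.4 FPKM in esiGFP. Both esiFLI1 libraries lay well above the other 4, and the change was 1.02 (SE 0.10, limma adjusted p = 0.00032 with the block and 0.069 without). NPC2, which hands cholesterol to NPC1, was at 170.0 and 80.3 FPKM in esiFLI1, 94.7 and 52.8 FPKM in esiUSP9X and 91.9 and 53.4 FPKM in esiGFP. Its groups overlapped and replicate 2 was low in each; the change was 0.73 (limma adjusted p = 0.0016 with the block and 0.61 without).

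LAMP2, a structural glycoprotein that also serves chaperone-mediated autophagy, was at 58.0 and 77.4 FPKM in esiFLI1, 33.5 and 40.9 FPKM in esiUSP9X and 39.6 and 44.8 FPKM in esiGFP, without overlap (change 0.66, limma adjusted p = 0.0019 with the block and 0.25 without). LAMP1, its close relative, was at 119 and 51.7 FPKM in esiFLI1, 62.0 and 31.2 FPKM in esiUSP9X and 82.4 and 42.5 FPKM in esiGFP (change 0.40, limma adjusted p = 0.017 with the block and 0.84 without). CD63 was at 588 and 268 FPKM in esiFLI1, 315 and 183 FPKM in esiUSP9X and 364 and 242 FPKM in esiGFP (change 0.42, limma adjusted p = 0.039 with the block and 0.79 without). LAMP1 and CD63 overlapped between groups. The blocked call of LAMP1 was lost without the first library of either group, with adjusted p up to 0.12. That of CD63 was lost without the first library of esiFLI1 or esiGFP or without either esiUSP9X library, with adjusted p up to 0.27. NPC1, the cholesterol exporter that works with NPC2, averaged 14.8 FPKM in esiFLI1 and 14.7 FPKM in esiGFP. MCOLN1 changed by 0.14 in replicate 1 and by −0.64 in replicate 2.

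**Figure D2:**
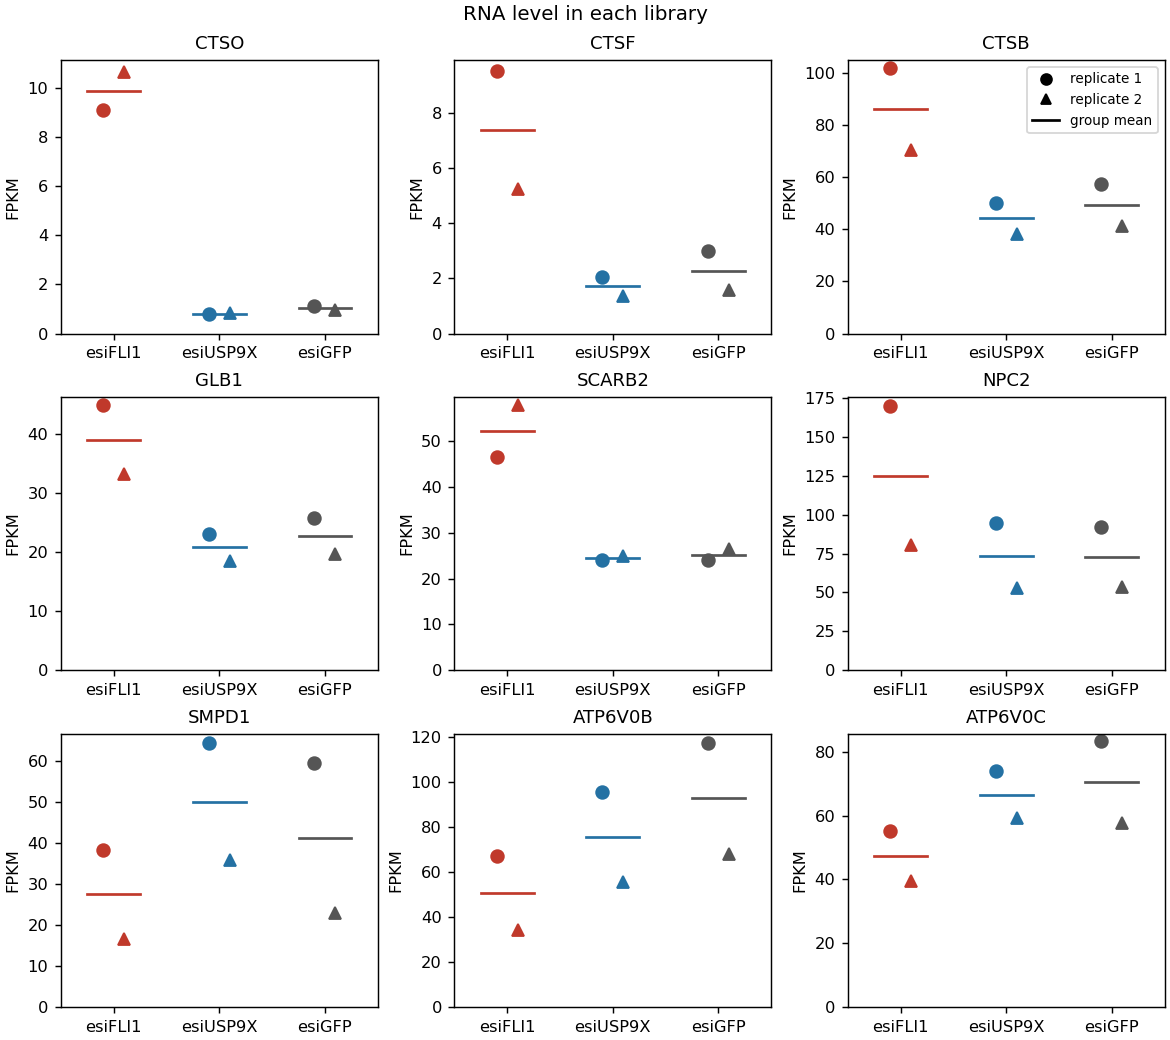
FPKM (y axis, linear from 0) of 9 lysosome genes in each library of esiFLI1, esiUSP9X and esiGFP; circles are replicate 1, triangles replicate 2 and bars the group mean. For CTSO, CTSF, CTSB, GLB1 and SCARB2 both esiFLI1 libraries lie above all others, and for ATP6V0C both lie below. All genes shown except CTSO and SCARB2 are lower in replicate 2 than in replicate 1 of every group.

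Of the 13 pump subunits 0 were called higher and 3 (23.1%) lower in esiFLI1 with the block, where 20.6% of all tested genes were higher and 21.6% lower, so the share that fell is near that of all genes. ATP6V0B, a proteolipid of the proton-conducting ring, was at 67.0 and 34.5 FPKM in esiFLI1, 95.6 and 55.8 FPKM in esiUSP9X and 118 and 68.1 FPKM in esiGFP. Both esiFLI1 libraries lay under both esiGFP libraries, and the change was −0.88 (SE 0.10, limma adjusted p = 0.00043 with the block and 0.48 without). ATP6V0C, the main ring proteolipid, was at 55.1 and 39.5 FPKM in esiFLI1, 73.9 and 59.3 FPKM in esiUSP9X and 83.5 and 57.7 FPKM in esiGFP, also without overlap with esiGFP. The change was −0.56 (SE 0.10, limma adjusted p = 0.0034 with the block and 0.45 without), and 4 pseudogenes bear its name.

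ATP6V1F, a small stalk subunit and the most abundant pump transcript here, was at 116 and 56.3 FPKM in esiFLI1, 136 and 79.8 FPKM in esiUSP9X and 131 and 81.2 FPKM in esiGFP. The groups overlapped, and the change was −0.35 (limma adjusted p = 0.038 with the block and 0.84 without). This call was lost under quantile normalization, without the second library of esiFLI1 or esiGFP and without either esiUSP9X library, with adjusted p up to 0.31. Among the other V0 subunits ATP6V0A1 changed by −0.27, ATP6V0E1 by 0.07 and ATP6V0D1 by 0.36, the last with limma adjusted p = 0.051 with the block. The remaining V1 subunits ranged from −0.27 (ATP6V1C1) to 0.13 (ATP6V1A), and ATP6V1D and ATP6V1B2 lay under esiGFP in both libraries without being called.

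Of the 3 MiT/TFE factors, TFEB and TFE3 were tested and not called, while MITF did not pass the filter and was not tested. TFE3 was at 19.6 and 11.7 FPKM in esiFLI1, 19.6 and 13.5 FPKM in esiUSP9X and 19.6 and 13.6 FPKM in esiGFP, a change of −0.10 (95% interval −0.34 to 0.13, limma adjusted p = 0.44 with the block) that was 0.01 after GC correction. TFEB was at 1.58 and 0.874 FPKM in esiFLI1, 1.30 and 0.957 FPKM in esiUSP9X and 1.69 and 0.570 FPKM in esiGFP, a change of 0.10 (95% interval −0.26 to 0.46, limma adjusted p = 0.64 with the block) that was −0.14 under quantile normalization. MITF was at 0.116 and 0.106 FPKM in esiFLI1, 0.0778 and 0.128 FPKM in esiUSP9X and 0.0473 and 0.0822 FPKM in esiGFP. RNA levels do not show where these proteins are in the cell.

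Summed by class, FPKM gave the following levels and ratios. The cathepsins summed to 465 and 284 FPKM in esiFLI1, 259 and 188 FPKM in esiUSP9X and 306 and 199 FPKM in esiGFP. The pump subunits summed to 716 and 549.8 FPKM in esiFLI1, 773 and 634 FPKM in esiUSP9X and 787 and 679 FPKM in esiGFP. A factor common to all genes of a library cancels in a ratio within it. The ratio of cathepsin to pump FPKM was 0.650 and 0.517 in esiFLI1, 0.335 and 0.297 in esiUSP9X and 0.389 and 0.293 in esiGFP. Both esiFLI1 ratios lay above the other 4. The same held for the other hydrolases over the pump, at 1.49 and 1.22 in esiFLI1, 0.949 and 0.849 in esiUSP9X and 1.001 and 0.795 in esiGFP. Membrane proteins over the pump gave 1.41 and 0.999 in esiFLI1, 0.719 and 0.549 in esiUSP9X and 0.796 and 0.625 in esiGFP, again without overlap. These ratios were not tested. The V0 to V1 ratio overlapped between groups, at 0.689 and 0.473 in esiFLI1, 0.645 and 0.530 in esiUSP9X and 0.729 and 0.527 in esiGFP. A few genes carry these sums: PSAP held 34.3% to 53.1% of the hydrolase sum and CD63 48.8% to 58.4% of the membrane sum, over the 6 libraries.

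**Figure D3:**
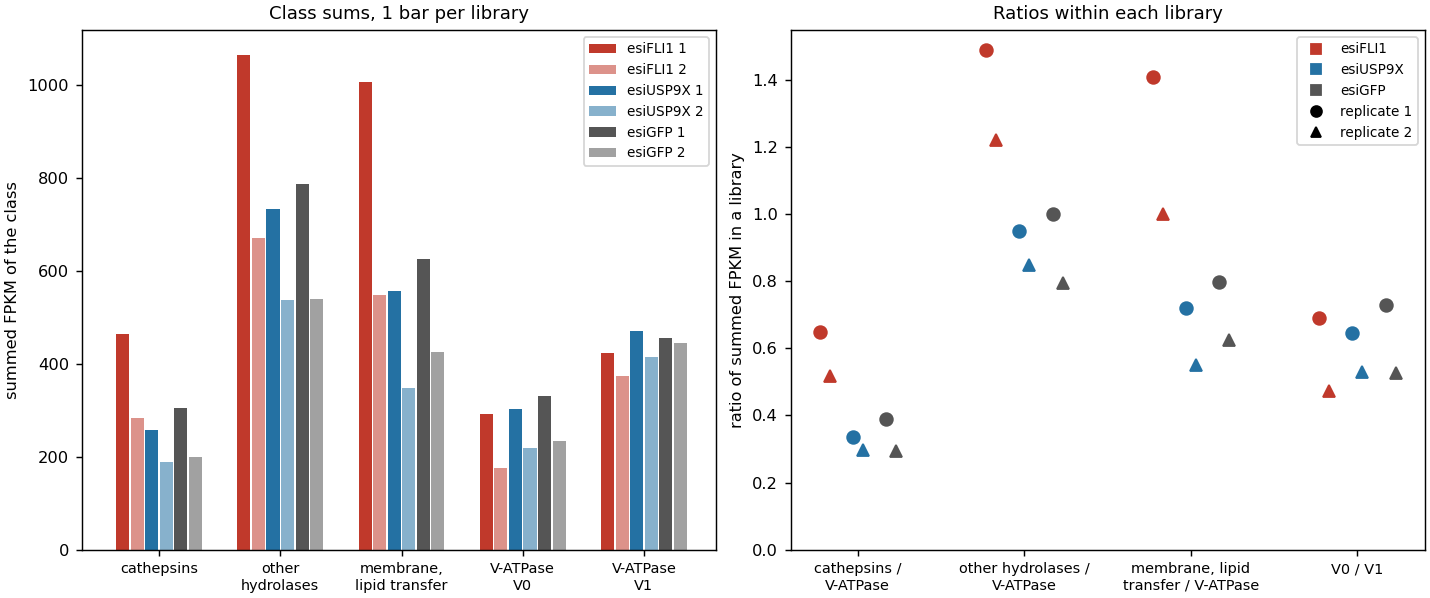
Left, summed FPKM (y axis, from 0) of each class, with a bar per library (esiFLI1, esiUSP9X, esiGFP; replicate 2 paler). Right, ratios of class sums within each library, where the first 3 ratios of both esiFLI1 libraries lie above those of the other 4 libraries and V0 over V1 overlaps.

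Replicate 2 was lower than replicate 1 in all 3 groups for 31 of the 46 lysosome genes, against 5757 of the 12169 tested genes. The median log2 difference of replicate 2 from replicate 1 over the lysosome genes was −0.47 in esiFLI1, −0.30 in esiUSP9X and −0.40 in esiGFP, against −0.12, −0.09 and −0.06 over all genes. The groups esiFLI1 and esiGFP overlapped for CTSA, CTSD, PSAP, CD63, LAMP1, NPC2, SMPD1 and ATP6V1F, while the change of each had the same sign within replicate 1 and within replicate 2. SMPD1, for example, changed by −0.62 in replicate 1 and −0.44 in replicate 2, while it differed by −1.16 between replicate 2 and replicate 1 of esiFLI1. What the replicate number stands for (a day, a batch or a culture) is not stated, and its part in the results was not tested beyond the block.

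**Figure D4:**
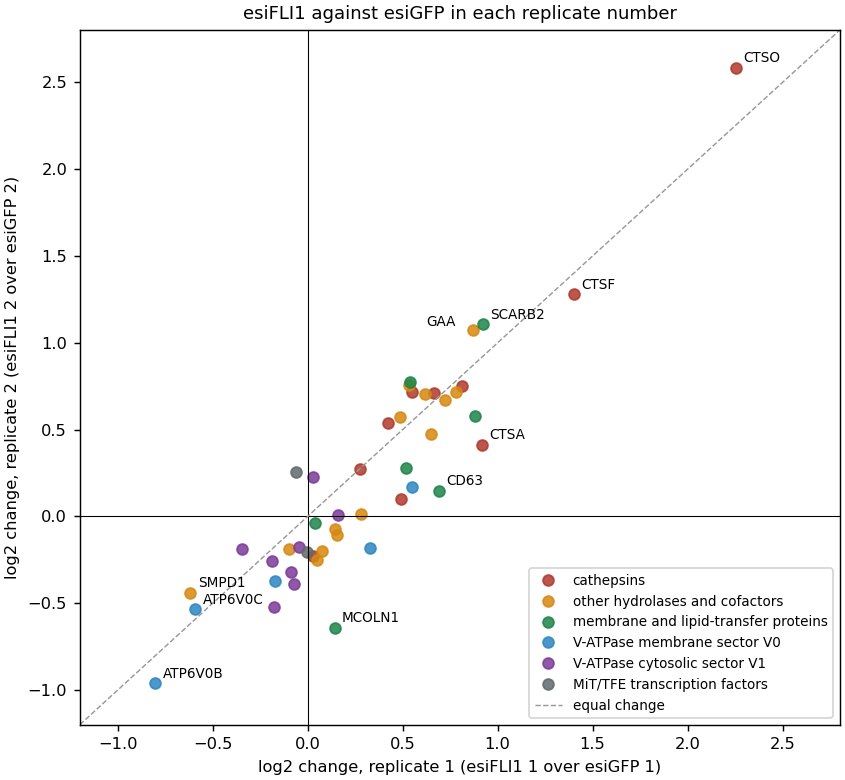
Log2 change of the 46 tested lysosome genes in esiFLI1 against esiGFP within replicate 1 (x axis) and within replicate 2 (y axis), coloured by class; the dashed line marks equal changes. CTSO and CTSF lie far up the line and ATP6V0B far down it, while MCOLN1 has opposite signs.

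In esiUSP9X against esiGFP no lysosome gene was called by limma, without the block (0 of 46, against 0.0247% of all genes) or with it (0 of 46, against 0.238%). This comparison and the previous share the esiGFP libraries. At an unadjusted p under 0.05 without the block there was 1 lysosome gene, LIPA, among 114 genes. Changes ran from −0.42 (LAMP1) to 0.47 (LIPA), and class medians from −0.16 (cathepsins) to 0.02 (MiT/TFE factors), against −0.01 over all tested genes. LIPA lay above esiGFP in both esiUSP9X libraries (values above), with a 95% interval of 0.25 to 0.69 and limma adjusted p = 0.16 with the block. Both esiUSP9X libraries lay below both esiGFP libraries for 7 lysosome genes (CTSC, CTSK, CTSO, CTSS, GLA, IDS and PPT1) and above for LIPA alone, where 7.82% of all genes lay below and 8.75% above. IDS, which removes sulphate from glycosaminoglycans, averaged 21.6 ± 1.05 FPKM in esiUSP9X and 28.6 ± 2.05 FPKM in esiGFP (SD, n = 2 each; change −0.39, limma adjusted p = 0.28 with the block). For CTSO the change was −0.17 (95% interval −0.46 to 0.13), and for SCARB2 −0.04 (−0.28 to 0.20). For ATP6V0B it was −0.29 (−0.51 to −0.06; limma adjusted p = 0.35 with the block).

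Set directly against esiFLI1, esiUSP9X had lower RNA for 19 of the 31 tested cathepsin, hydrolase and membrane genes in the fit with the block. This contrast uses the esiFLI1 libraries again and is no independent evidence for their level. With the block limma called 4 of the 46 genes higher in esiUSP9X and 20 lower, against 20.2% and 20.9% of all tested genes; without it CTSO alone was called (0 higher and 1 lower, against 0.419% and 2.66%). Of the 20, 8 were cathepsins (of 10), 6 other hydrolases (of 14), 5 membrane proteins (of 7) and 1 the pump subunit ATP6V0D1. CTSO differed by −2.59 (limma adjusted p = 0.0072 without the block), CTSF by −1.59, GAA by −1.31 and SCARB2 by −1.05, the last 3 with limma adjusted p = 0.00011, 0.0011 and 0.00026 with the block. CTSK, not called against esiGFP, was lower in esiUSP9X than in esiFLI1 (log2 change −0.65, limma adjusted p = 0.0046 with the block). LIPA was not called here (−0.20, 95% interval −0.42 to 0.03). The 4 higher in esiUSP9X were SMPD1 (0.89), ATP6V0B (0.59), ATP6V0C (0.50) and ATP6V1F (0.36). Leaving out the genes tested only through esiFLI1 (CTSO and CTSS), 17 of the 29 remaining cathepsin, hydrolase and membrane genes were lower, against 18.6% of the remaining genes. Of these calls, CTSA was lost without the first esiFLI1 library or either esiUSP9X library (adjusted p up to 0.11), CTSD without either esiFLI1 library or the first esiUSP9X library (up to 0.083), and TPP1 and CD63 without the first esiUSP9X library (0.052 and 0.053). Among the pump subunits, ATP6V0C was lost without the second library of esiFLI1 or esiUSP9X (up to 0.075), ATP6V0D1 without the first esiFLI1 library or either esiUSP9X library (up to 0.27), and ATP6V1F under quantile normalization, without the second esiFLI1 library or without either esiUSP9X library (up to 0.22).

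Further lysosomal genes, chosen by name and not for their values but with earlier results of these data known, were counted in esiFLI1 against esiGFP with the block, where 20.6% of all tested genes rose and 21.6% fell. Among 25 other hydrolases and cofactors that passed the filter, 17 rose and 1 fell, with a median change of 0.50, against −0.03 over all tested genes. MANBA, a beta-mannosidase, was at 17.8 and 17.6 FPKM in esiFLI1, 4.27 and 3.52 FPKM in esiUSP9X and 3.85 and 3.94 FPKM in esiGFP (change 1.93, limma adjusted p = 0.014 without the block and 2.3e-05 with it). Its esiFLI1 libraries stood well apart from the other 4. SCPEP1, a serine carboxypeptidase, changed by 0.98, SIAE, a sialic acid esterase, by 0.92, and ACP5, an acid phosphatase, by 0.84 (limma adjusted p between 0.00081 and 0.0076 with the block). ACP5 passed the filter only through its esiFLI1 libraries; without it 16 of 24 rose. CTSV, a cysteine protease related to CTSL, was the one that fell (−0.32, limma adjusted p = 0.039 with the block). Of 15 further membrane proteins 6 (40.0%) rose and 0 fell, among them the channel TPCN1 (0.80), SIDT2 (0.78), CD68 (0.70) and the sialic acid exporter SLC17A5 (0.61).

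In the lists that follow, the share that rose was nearer to that of all tested genes (20.6% higher and 21.6% lower). Of 9 further pump subunits and accessory proteins that passed, 2 rose and 2 fell, or 1 and 2 of 8 without ATP6V1G2. ATP6AP2, an accessory protein of the pump, rose by 0.46, and ATP6V1G2, a neuronal subunit form that passed only through its esiFLI1 libraries, by 0.78. ATP6V0A2 fell by 0.43 on the log2 scale and VMA21, an assembly factor, by 0.35. Of 17 genes of the mannose 6-phosphate tag and lysosomal sorting 5 (29.4%) rose and 2 (11.8%) fell; SUMF1, which activates sulphatases, rose by 0.84, the sorting receptors SORT1 and IGF2R by 0.58 and 0.55, and GNPTG, a subunit of the enzyme that starts the tag, by 0.51. Of 18 genes of mTORC1 at the lysosome 5 (27.8%) rose and 2 (11.1%) fell. The GTPase RRAGB rose by 0.80, and RRAGA, FNIP1, RRAGC and TSC1 by between 0.33 and 0.39. The genes that fell were RPTOR (−0.33) and LAMTOR1 (−0.31). Of 18 autophagy genes 5 rose and 0 fell, or 4 (23.5%) and 0 of 17 without WIPI1, which passed only through its esiFLI1 libraries. WIPI1, a phosphoinositide-binding autophagy protein, was at 5.02 and 4.55 FPKM in esiFLI1, 0.551 and 1.09 FPKM in esiUSP9X and 0.862 and 0.290 FPKM in esiGFP (change 1.90, limma adjusted p = 0.032 without the block and 0.00043 with it). Of 4 cathepsin inhibitors that passed, SERPINB6 rose (0.80) and CSTA fell (−0.97); CSTA passed only through its esiUSP9X and esiGFP libraries.

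Markers of macrophages, osteoclasts, melanocytes, endothelial cells and epithelial cells were checked. Of 10 macrophage markers 0 passed the filter; their summed FPKM was 0.860 and 0.358 in esiFLI1, 0.652 and 0.407 in esiUSP9X and 0.579 and 0.455 in esiGFP, with TYROBP listed at 0 throughout. Of 9 osteoclast markers 3 passed (ACP5, NFATC1 and MMP9) and 2 rose in esiFLI1 with the block (ACP5 and NFATC1), while ACP5 and MMP9 passed only through their esiFLI1 libraries; the list summed to 12.1 and 7.93 FPKM in esiFLI1, 5.10 and 3.45 FPKM in esiUSP9X and 8.30 and 3.81 FPKM in esiGFP, with CALCR and OCSTAMP at 0 throughout. Of 6 melanocyte markers GPNMB alone passed, at 6.42 and 8.32 FPKM in esiFLI1, 0.876 and 0.978 FPKM in esiUSP9X and 1.25 and 1.64 FPKM in esiGFP (change 1.77, limma adjusted p = 0.019 without the block), with TYR and DCT at 0 throughout. The melanocyte list summed to 7.74 and 9.48 FPKM in esiFLI1, 1.66 and 1.44 FPKM in esiUSP9X and 1.80 and 1.90 FPKM in esiGFP. Of 5 endothelial markers KDR alone passed, through its esiFLI1 libraries. Its log2 change of 1.08 was called in both fits, but it was tested only because it is high in esiFLI1. The endothelial list summed to 1.51 and 1.57 FPKM in esiFLI1, 0.231 and 0.198 FPKM in esiUSP9X and 0.210 and 0.153 FPKM in esiGFP. Of 5 epithelial markers 0 passed, and CDH1, KRT5 and KRT14 were at 0 throughout. What part these markers have in the lysosomal results was not tested.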

How the data were processed

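RNA of 6 A673 libraries was sequenced as stranded, ribosome-depleted total RNA (75 nt reads from 2 µg), per the labels' protocols. The deposited table holds FPKM per gene symbol and library, made by the authors. The submitters' processing notes name TopHat, Cufflinks, Cuffdiff, hg19 and GRCh37; the versions, annotation, use of strand and scaling between libraries were not given in the sources used here. Without read counts the sequencing depth is unknown, so no counting interval is given. A stray line was dropped (1 line), and symbols were matched exactly.

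Log2(FPKM + 1) of 12169 genes (1 FPKM or more in 2 or more libraries) was fitted with limma 3.58.1 in R 4.3.3 (eBayes with trend, all 6 libraries, 3 group means), with two-sided tests and Benjamini-Hochberg adjustment over these genes. Residual degrees of freedom were 3 (prior 2.21) without the block and 2 (prior 5.72) with it. Same-numbered libraries deviated together, with correlations across genes of 0.644 (esiFLI1 and esiUSP9X), 0.647 (esiFLI1 and esiGFP) and 0.589 (esiUSP9X and esiGFP); each was over 0.1, so the pairing comes from the data and not the labels. The code was tested on simulated data.

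The members and lists were chosen with earlier results of these data known. Genes named with values in every library are members called in either fit with a log2 change of at least 0.5 in size, the most abundant of each class, the MiT/TFE factors, and up to 4 called genes of each further list by largest change. By GENCODE v29, which is on another build and was used for names, length and GC only, 7 members have pseudogenes named after them. Exons of 10 overlap another gene on the same strand and exons of 17 on the opposite strand. The 10 are CTSD, GLB1, HEXA, IDS, MAN2B1, TPP1, NPC2, MCOLN1, ATP6V0A1 and ATP6V0C, so their reads may be shared. Alternatives were the pseudocount, the filter, quantile and median-ratio scaling, the block, GC correction, leaving out each library and leaving out genes that passed the filter only through esiFLI1.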

Additional observations from a re-analysis of the deposited data

How the results depend on the processing

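With the replicate block, which pairs libraries by number, the members called were 23 in esiFLI1 against esiGFP, 0 in esiUSP9X against esiGFP and 24 in esiUSP9X against esiFLI1, in place of 1, 0 and 1 without it; all genes called were 5125, 29 and 4996, in place of 342, 3 and 375. The block with quantile normalization gave 23, 0 and 23 members and 4710, 34 and 4863 genes. GC correction, median-ratio scaling with the block and leaving out the 490 genes tested only through esiFLI1 were chosen after seeing the data. The block without those genes gave 21, 0 and 22 members and 4753, 29 and 4625 genes. The block with GC correction gave 27, 0 and 25 members and 5874, 19 and 5876 genes; the block with median-ratio scaling gave 24, 0 and 24 members and 5207, 29 and 5118 genes. GC correction without the block called 10 members in esiFLI1 against esiGFP and 9 in esiUSP9X against esiFLI1, among 2190 and 2327 genes; in esiFLI1 against esiGFP 67.3% of all calls were then higher, against 91.8% without it, and in esiUSP9X against esiFLI1 36.2%, against 13.6%. The cause was not tested. A filter of 5 FPKM, which tests fewer genes, called 139 and 154 genes in these comparisons, and no filter called 8 genes in esiUSP9X against esiGFP.

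Leaving out each library in turn leaves a group with a lone library assumed to vary like the others. Without the block this gave 0 to 1 members in esiFLI1 against esiGFP and in esiUSP9X against esiFLI1, with 1 to 69 and 0 to 91 genes called; CTSO lost its call when any library of the groups compared was left out. In esiUSP9X against esiGFP it gave 1 to 4 genes. With the block it gave 17 to 22 members in esiFLI1 against esiGFP and 18 to 24 in esiUSP9X against esiFLI1, with 2606 to 4771 and 2574 to 5370 genes, and 12 to 266 genes in esiUSP9X against esiGFP.

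Some log2 changes turned sign. The ranges below are from the fit without the block, where leaving out a library sets a lone replicate against both of the other group. In esiFLI1 against esiGFP, leaving out a library gave a range for CTSD from −0.10 to 1.06, SMPD1 from −1.195 to 0.14, LAMP1 from −0.19 to 0.99, CD63 from −0.15 to 0.99, ATP6V1F from −0.86 to 0.17, TFEB from −0.29 to 0.49 and TFE3 from −0.45 to 0.24. Within replicate 1 and within replicate 2 the change was 0.42 and 0.54 for CTSD, −0.62 and −0.44 for SMPD1 and 0.52 and 0.28 for LAMP1. It was 0.69 and 0.15 for CD63, −0.18 and −0.52 for ATP6V1F, −0.0059 and −0.20 for TFE3 and −0.06 and 0.26 for TFEB. TFEB was −0.14 under quantile normalization with and without the block, and TFE3 was 0.0086 after GC correction with and without it. In esiUSP9X against esiGFP, LAMP1 ranged from −0.90 to 0.066 and ATP6V0B from −0.68 to 0.10. In esiUSP9X against esiFLI1, CTSA ranged from −1.15 to 0.069. The FPKM table gives no depth, which limits what can be said of low genes such as TFEB, CTSS and MITF.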
